A study of Homo sapiens with 18 samples.

Results

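Chromatin immunoprecipitation and sequencing (ChIP-seq) peaks of TLE3 and FOXA1 were described at the genes of the Grainyhead-like factors, GRHL1, GRHL2 and GRHL3, and of the OVO-like factors, OVOL1 and OVOL2. These are 5 of 19974 protein-coding genes. A peak was counted for a gene when its centre lay in the gene body or within 50 kb of it on hg38, which took in 759 of the 1134209 peaks of the 12 deposited lists. TLE3 immunoprecipitates were made from the lines MDA-MB-453, SKBR3 and T47D, and FOXA1 immunoprecipitates from the same lines, with 2 replicates each, which the labels call biological without saying how they were grown. P-values therefore measure the spread between these libraries. All 3 are established human luminal breast cancer lines, and the labels name no treatment. MDA-MB-453 and SKBR3 lack the estrogen receptor, SKBR3 carries an ERBB2 amplification, and T47D has the estrogen receptor. Cells for TLE3 received a second crosslinker before formaldehyde and another antibody, so factor, antibody and fixation cannot be told apart. The 6 input samples had no file here, and RNA was not measured.

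TLE3 is a Groucho-family corepressor with no DNA-binding domain of its own, brought to chromatin by transcription factors. FOXA1 is a forkhead pioneer factor that opens enhancers in luminal breast cells. Grainyhead-like factors bind DNA as dimers and maintain genes of cell junctions and of the epithelial barrier. OVOL1 and OVOL2 are zinc finger repressors that hold epithelial cells back from a mesenchymal state, in part by repressing ZEB1. GRHL2 is the member best known in breast epithelium, where it occupies enhancers together with FOXA1 and the estrogen receptor.

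Of the 5 genes, GRHL1 and GRHL3 matched the RefSeq promoter table, and a promoter of each is shown because peaks covered it. Each is the 250 bases before the annotated start, on the plus strand, from RefSeq on GRCh38.p14. GRHL1 lies at chr2:9951443-9951692 and GRHL3, by the first of its 2 promoters in the table, at chr1:24319107-24319356. Capitals mark CCAAT or its complement ATTGG.
GRHL1: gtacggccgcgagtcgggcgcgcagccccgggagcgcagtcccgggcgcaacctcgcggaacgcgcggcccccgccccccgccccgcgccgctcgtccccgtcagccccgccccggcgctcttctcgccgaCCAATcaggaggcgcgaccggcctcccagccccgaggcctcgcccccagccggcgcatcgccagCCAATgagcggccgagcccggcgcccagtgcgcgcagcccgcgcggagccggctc
GRHL3: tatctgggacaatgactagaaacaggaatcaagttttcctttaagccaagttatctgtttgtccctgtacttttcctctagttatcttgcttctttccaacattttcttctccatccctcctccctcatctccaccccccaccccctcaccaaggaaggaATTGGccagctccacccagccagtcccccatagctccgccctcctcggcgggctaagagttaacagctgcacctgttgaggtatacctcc
The GRHL1 stretch was 81.6% G and C with 45 CG dinucleotides. The GRHL3 stretch was 50.8% G and C with 3 CG dinucleotides. The median over 35116 promoters of the same length was 58.0% and 11. The forkhead letters TGTTTAC were absent from both windows on either strand. The forms TGTTTGC and, with another last base, TGTTTAT were absent too, and 9.52% of all promoters held at least 1 of these. Other forkhead forms were not searched, among them TGTTTGT, which the GRHL3 window holds. The Grainyhead letters AACCGGTT were absent as well and occurred in 0.117% of promoters. CCAAT occurred in 32.0% of promoters, at 2 places in the GRHL1 window and 1 in the GRHL3 window.

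TLE3 peaks covered the GRHL1 promoter at the 88.4 and 93.9 percentiles of their lists in T47D, where a percentile is the rank of a peak's score within its own list. The score is the authors' own value, and ranks in lists of unequal length do not measure a difference in binding between factors or lines. In the other TLE3 libraries they covered it at 4.01 in MDA-MB-453 replicate 1 and 58.6 in SKBR3 replicate 2, with no peak in MDA-MB-453 replicate 2 or SKBR3 replicate 1. FOXA1 peaks there had percentiles of 45.1 and 23.8 in MDA-MB-453, 0.869 in SKBR3 replicate 1, and 73.3 and 49.0 in T47D, with none in SKBR3 replicate 2. At the GRHL3 promoter, TLE3 peaks were found in SKBR3 replicate 2 at 10.9 and in T47D replicate 2 at 51.8 only, whereas FOXA1 peaks covered it in all 6 libraries, at 86.6 and 85.5 in MDA-MB-453, 83.9 and 79.5 in SKBR3, and 90.7 and 90.6 in T47D. The CG-rich GRHL1 promoter thus carried high-ranked TLE3 peaks in T47D, and the CG-poor first GRHL3 promoter carried high-ranked FOXA1 peaks in every line. The other GRHL3 promoter, chr1:24322790-24323039, had 52.0% G and C and 10 CG dinucleotides. No TLE3 peak covered it, and 1 FOXA1 peak did, at 17.6 in MDA-MB-453 replicate 2. TLE3 peaks of T47D at 86.0 and 90.4 ended just before it, at 3.356 and 3.374 kb from the lower-coordinate end of the gene.

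TLE3 lists held 21149 to 94363 peaks and FOXA1 lists 107598 to 188029. Read depth is unknown, so levels are given as a share, the peaks of a window per 100000 peaks of the list. On the 12 lists a single peak adds 1.06 to 4.73 to a TLE3 share and 0.532 to 0.929 to a FOXA1 share, so low TLE3 shares move in coarse steps. The library labelled SKBR3 TLE3 replicate 2 stood apart from its partner. It had 72 peaks near the 5 genes and replicate 1 had 24. Of the 72, 12 overlapped a replicate 1 peak, and over the whole list 7.54% did. The other replicate pairs overlapped at 46.3 to 97.0%. Results that rest on this library are therefore given with and without it.

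GRHL2, the luminal Grainyhead factor, had the longest window and the most peaks. TLE3 lists held 9 and 8 GRHL2 peaks in MDA-MB-453, 2 and 16 in SKBR3, and 12 and 24 in T47D. FOXA1 lists held 52 and 40 in MDA-MB-453, 31 and 35 in SKBR3, and 53 and 55 in T47D. Per 100 kb, the FOXA1 peak density of GRHL2 was 10.7 to 19.0 and ranked between the 94.0 and 99.3 percentiles of protein-coding genes. The TLE3 density of GRHL2 was 2.77 to 8.31 in MDA-MB-453 and T47D, between the 86.5 and 95.6 percentiles, but in SKBR3 it was 0.693 and 5.54, at the 52.0 and 54.5 percentiles. TLE3 was thus dense over GRHL2 in MDA-MB-453 and T47D and ordinary in SKBR3.

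As shares, TLE3 gave GRHL2 21.1 and 35.2 per 100000 peaks in MDA-MB-453, 9.46 and 17.0 in SKBR3, and 39.8 and 39.1 in T47D. FOXA1 gave it 27.7 and 26.1 in MDA-MB-453, 28.8 and 30.0 in SKBR3, and 36.0 and 36.9 in T47D. Every SKBR3 TLE3 library lay below every FOXA1 library of SKBR3, and every T47D TLE3 library lay above every FOXA1 library of T47D. The MDA-MB-453 groups overlapped. Such separation of libraries was not counted over all genes, for GRHL2 or the other members. The gap in T47D was smaller than the 3.31 that a single peak adds in T47D TLE3 replicate 1. Over the 3 lines the log2 difference of TLE3 from FOXA1, on the log2(share + 1) scale, was -0.34 ± 0.17 (SE, adjusted p = 0.227, limma). The value without SKBR3 TLE3 replicate 2 was -0.47 ± 0.13, with an adjusted p of 0.0181, a call that the 12 libraries did not give. GRHL2 also passed with equally long lists of 21149 peaks, at -0.69 (adjusted p = 0.0415), and by number of peaks, at -2.05 (adjusted p = 0.000298), where the median of all genes was -1.36 and 76.7% of them were called lower.

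**Figure D1:**
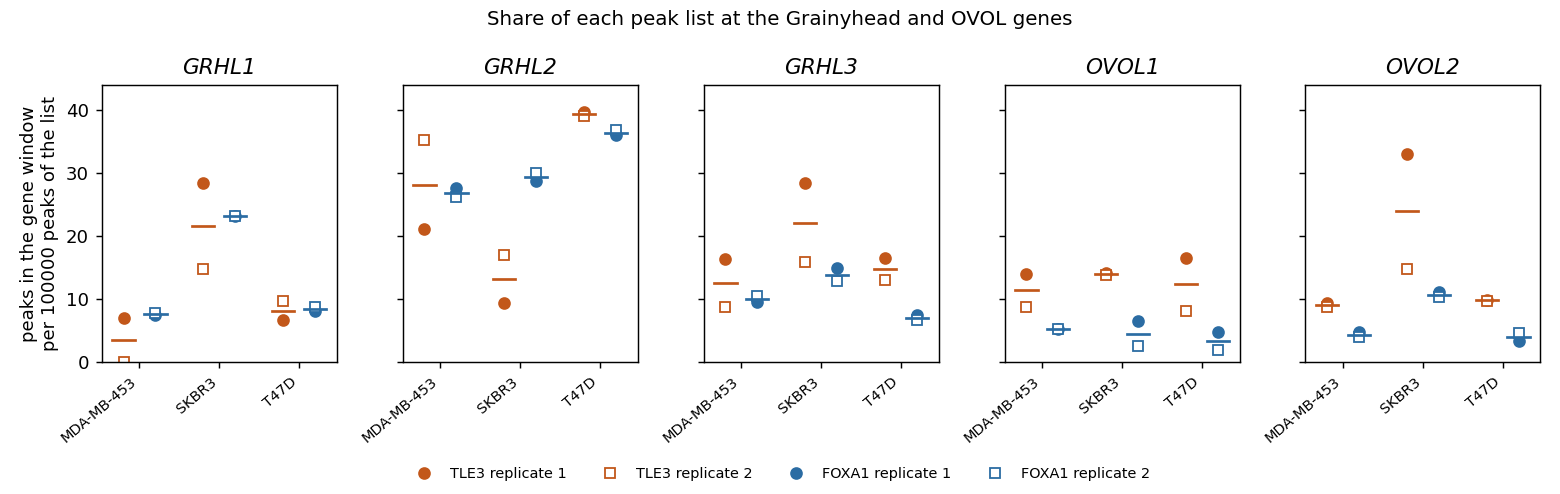
Peaks in each gene window per 100000 peaks of the list (vertical axis) for the 12 libraries, by line (horizontal axis), with replicate 1 filled, replicate 2 open and the mean of each pair as a bar. TLE3 shares of GRHL2 in SKBR3, 9.46 and 17.0, lie below the FOXA1 shares of 28.8 and 30.0, and every TLE3 share of OVOL1 lies above every FOXA1 share.

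The 337 peaks at GRHL2 fell into 75 merged places, of which 22 were seen in a single library. The most recurrent are given by their distance from the lower-coordinate end of the gene. The place at 115 kb, inside the gene body at chr8:101607079-101608704, had a peak in 11 of 12 libraries and was missing in SKBR3 TLE3 replicate 2 alone. TLE3 peaks there ranked at the 97.7 and 94.8 percentiles in MDA-MB-453, 96.8 in SKBR3 replicate 1, and 96.0 and 97.9 in T47D. FOXA1 peaks there ranked from 99.1 to 99.9. It was the highest ranked TLE3 site of GRHL2 in MDA-MB-453, in SKBR3 replicate 1 and in T47D, and the highest ranked FOXA1 site in all 3 lines.

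A place at -25.1 kb, chr8:101466366-101468301, also had peaks in 11 libraries. TLE3 percentiles there were 80.3 and 65.4 in MDA-MB-453, 59.1 in SKBR3 replicate 1, and 89.7 and 97.6 in T47D, with FOXA1 between 97.0 and 99.9. The lower-coordinate end itself, chr8:101490471-101494404, had TLE3 peaks at 47.4 and 37.1 in MDA-MB-453, 26.8 in SKBR3 replicate 2 only, and 91.4 and 96.5 in T47D. FOXA1 peaks at this end ranked at 82.8 and 85.3 in MDA-MB-453, 24.2 and 49.2 in SKBR3, and 83.5 and 83.9 in T47D. At 91.3 kb, chr8:101583058-101584373, TLE3 ranked at 87.8 and 77.1 in MDA-MB-453 and at 80.1 and 87.4 in T47D, with no TLE3 peak in either SKBR3 library, while FOXA1 ranked from 96.6 to 99.2 in all 6. SKBR3 therefore had the 115 kb and -25.1 kb TLE3 places in replicate 1, without the gene end and the 91.3 kb place. Of the 75 places, 20 had a peak in all 6 FOXA1 libraries, 2 had one in all 11 libraries other than SKBR3 TLE3 replicate 2, and 7 were seen in that replicate alone.

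**Figure D2:**
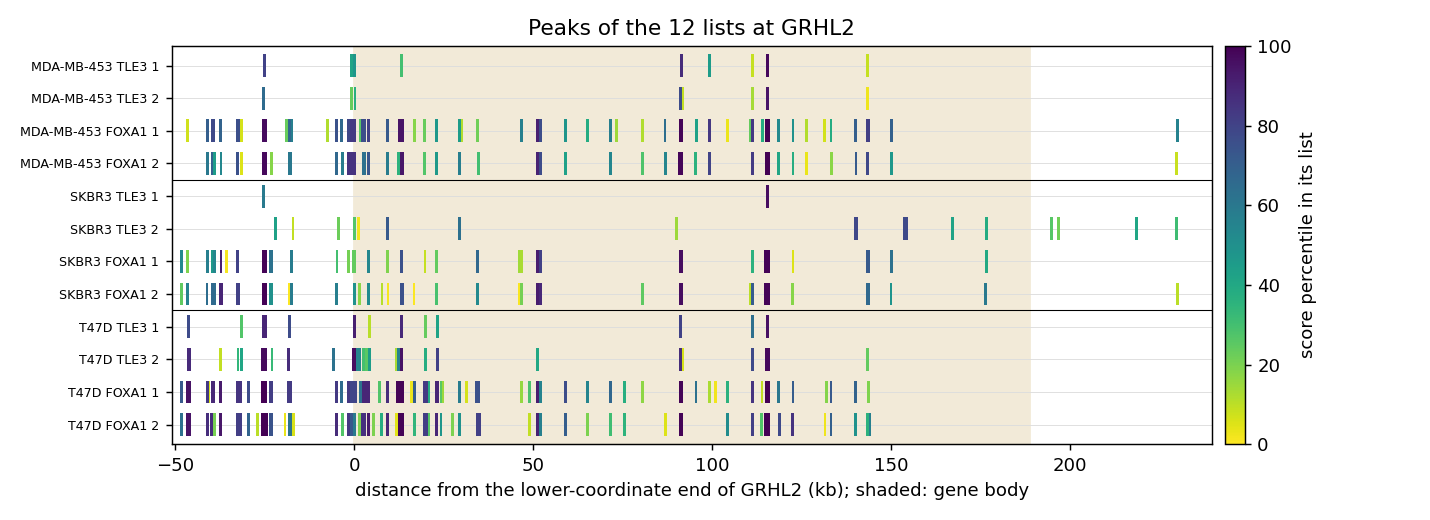
Peaks of the 12 lists along the GRHL2 window, with distance from the lower-coordinate end of the gene in kb on the horizontal axis, libraries as rows, the gene body shaded and colour for the score percentile in the list; narrow peaks are drawn at a width of 0.8 kb. The column at 115 kb is dark in 11 rows and blank in SKBR3 TLE3 replicate 2.

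GRHL1, a regulator of desmosomal cadherin genes in mouse skin, had its peaks in SKBR3 above all. TLE3 lists held 3 and 0 GRHL1 peaks in MDA-MB-453, 6 and 14 in SKBR3, and 2 and 6 in T47D. FOXA1 lists held 14 and 12 in MDA-MB-453, 25 and 27 in SKBR3, and 12 and 13 in T47D. Per 100 kb, the FOXA1 density of GRHL1 in SKBR3 was 16.6 and 17.9, at the 99.3 and 99.4 percentiles of genes, against the 71.3 to 81.3 percentiles in the other lines. TLE3 shares were 7.03 and 0 per 100000 in MDA-MB-453, 28.4 and 14.8 in SKBR3, and 6.63 and 9.77 in T47D. FOXA1 shares were 7.45 and 7.84 in MDA-MB-453, 23.2 and 23.1 in SKBR3, and 8.15 and 8.72 in T47D. For both factors the SKBR3 libraries were the highest and did not overlap the others. The log2 difference of TLE3 from FOXA1 was -0.61 ± 0.43 over the lines (SE, adjusted p = 0.387, limma), and -0.46 with an adjusted p of 0.455 without SKBR3 TLE3 replicate 2. The value moved with the MDA-MB-453 TLE3 libraries, which had 3 and 0 peaks. Without replicate 1 of them it was -1.11 with an adjusted p of 0.0117, and without replicate 2 it was -0.11 with an adjusted p of 0.762. By number of peaks it was -1.92 with an adjusted p of 0.000781, or 0.56 below the median of all genes, and with equally long lists it was 0.55 with an adjusted p of 0.442.

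Of 23 merged FOXA1 sites at GRHL1, 10 were found in SKBR3 alone, beside 23348 of 196570 over all FOXA1 sites. In all 3 lines 5 were found, or 21.7%, near the 22.2% of all FOXA1 sites. A site is a merged region with a peak of both replicates, except that SKBR3 TLE3 sites are given for each replicate by itself where the replicate is named. The highest ranked one in SKBR3, at 24.0 kb inside the gene (chr2:9975018-9976298), had a TLE3 percentile of 89.1 in SKBR3 replicate 1 and FOXA1 percentiles of 93.2 and 95.1. In MDA-MB-453 the same place had TLE3 at 21.7 in replicate 1 alone and FOXA1 at 83.1 and 81.4, and in T47D it had no TLE3 peak and FOXA1 at 51.3 and 10.4. The highest ranked TLE3 site of GRHL1 was this intragenic place in SKBR3 replicate 1 and the promoter printed above in T47D.

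GRHL3, the Grainyhead factor of the epidermal barrier and wound closure, had peaks in every library. TLE3 lists held 7 and 2 GRHL3 peaks in MDA-MB-453, 6 and 15 in SKBR3, and 5 and 8 in T47D. FOXA1 lists held 18 and 16 in MDA-MB-453, 16 and 15 in SKBR3, and 11 and 10 in T47D. As shares, TLE3 gave 16.4 and 8.81 per 100000 in MDA-MB-453, 28.4 and 15.9 in SKBR3, and 16.6 and 13.0 in T47D, and FOXA1 gave 9.57 and 10.5 in MDA-MB-453, 14.9 and 12.8 in SKBR3, and 7.47 and 6.71 in T47D. TLE3 shares lay above FOXA1 shares in SKBR3 and T47D, and the MDA-MB-453 groups overlapped. The gap in SKBR3 was smaller than the 1.06 that a single peak adds in SKBR3 TLE3 replicate 2. The log2 difference was 0.60 ± 0.19 (SE, adjusted p = 0.0824, limma; exact two-sided permutation within lines, p = 0.0463). It was 0.73 with an adjusted p of 0.00884 without SKBR3 TLE3 replicate 2, and without MDA-MB-453 TLE3 replicate 2 it was 0.74 with an adjusted p of 0.0396. By number of peaks it was -1.05 with an adjusted p of 0.0133, where the median of all genes was -1.36, and with the upper 50% of each list by score it was -0.016, where the median was -0.37, so its sign depends on the scaling.

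The most recurrent place of GRHL3 lay at -35.4 kb, chr1:24283153-24284671, with peaks in 11 libraries and none in SKBR3 TLE3 replicate 2. TLE3 percentiles there were 71.2 and 28.1 in MDA-MB-453, 77.3 in SKBR3 replicate 1, and 88.1 and 93.6 in T47D. FOXA1 percentiles were 89.0 and 84.8 in MDA-MB-453, 84.8 and 90.0 in SKBR3, and 85.5 and 73.3 in T47D. At 2.88 kb inside the gene, chr1:24321577-24322902, TLE3 ranked at 55.4 in MDA-MB-453 replicate 1 alone, 47.4 and 16.7 in SKBR3, and 86.0 and 90.4 in T47D. FOXA1 ranked there at 31.3 and 17.6 in MDA-MB-453, 30.7 and 52.6 in SKBR3, and 39.0 in T47D replicate 1 alone. In SKBR3 the highest ranked FOXA1 site was at 55.9 kb, beyond the upper end of the gene and inside STPG1.

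OVOL1, known in mouse skin as a repressor that lets keratinocytes leave the cell cycle, had few peaks of either factor in the shortest window, 110 kb. Its TLE3 density per 100 kb ranked at the 97.7 and 86.7 percentiles of genes in MDA-MB-453, 90.4 and 89.8 in SKBR3, and 94.2 and 72.4 in T47D. The FOXA1 density ranked at 69.7 and 70.1 in MDA-MB-453, 75.0 and 32.3 in SKBR3, and 59.6 and 19.1 in T47D. TLE3 lists held 6 and 2 OVOL1 peaks in MDA-MB-453, 3 and 13 in SKBR3, and 5 and 5 in T47D, and FOXA1 lists held 10 and 8 in MDA-MB-453, 7 and 3 in SKBR3, and 7 and 3 in T47D. TLE3 shares were 14.1 and 8.81 per 100000 in MDA-MB-453, 14.2 and 13.8 in SKBR3, and 16.6 and 8.14 in T47D. FOXA1 shares were 5.32 and 5.23 in MDA-MB-453, 6.51 and 2.57 in SKBR3, and 4.75 and 2.01 in T47D. Every TLE3 library lay above every FOXA1 library.

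The OVOL1 share rose in TLE3 relative to FOXA1, with a log2 difference of 1.36 ± 0.28 (SE, adjusted p = 0.0173, limma), positive in 3 of 3 lines with 0.95 for MDA-MB-453, 1.53 for SKBR3 and 1.61 for T47D. Permuting the factor labels inside each line (exact, two-sided) had p = 0.00926, the lowest possible with 216 arrangements. The difference was 1.37 with an adjusted p of 0.00777 without SKBR3 TLE3 replicate 2, and 1.12 with an adjusted p of 2.8e-05 in equally long lists. By number of peaks it was -0.21 with an adjusted p of 0.639, which lay 1.15 above the median of all genes, so the share was higher and the number was not. Leaving out MDA-MB-453 FOXA1 replicate 1 or 2, SKBR3 FOXA1 replicate 2, T47D TLE3 replicate 1 or T47D FOXA1 replicate 2 ended the call, with log2 differences of 1.37, 1.36, 1.19, 1.21 and 1.21 and adjusted p of 0.0585, 0.0659, 0.062, 0.0523 and 0.0672 in that order.

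OVOL1 had 2 places with a peak in all 12 libraries. At the lower-coordinate end, chr11:65786418-65787630, TLE3 ranked at 69.4 and 51.6 in MDA-MB-453, 42.3 and 14.8 in SKBR3, and 73.2 and 84.4 in T47D, and FOXA1 at 72.2 and 72.2 in MDA-MB-453, 34.6 and 48.9 in SKBR3, and 59.7 and 41.3 in T47D. At 3.22 kb inside the gene, chr11:65789615-65790944, where the gene LOC124902693 also lies, the FOXA1 peaks were among the highest of their lists and most TLE3 peaks were not. TLE3 percentiles there were 52.2 and 8.78 in MDA-MB-453, 41.3 and 24.3 in SKBR3, and 21.4 and 77.1 in T47D. FOXA1 percentiles were 97.2 and 95.9 in MDA-MB-453, 98.9 and 99.0 in SKBR3, and 98.4 and 99.0 in T47D. Other TLE3 places lay outside OVOL1. At -6.37 kb, inside AP5B1, TLE3 ranked at 31.1 in MDA-MB-453 replicate 1, 64.9 and 69.9 in SKBR3, and 61.8 and 71.3 in T47D. FOXA1 ranked there at 3.26 in MDA-MB-453 replicate 2 and 6.91 in T47D replicate 1 alone. At -20.4 kb, in T47D only, TLE3 ranked at 77.9 and 92.2 and FOXA1 at 59.5 and 62.0.

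OVOL2, a repressor of epithelial-mesenchymal transition genes, had TLE3 lists with 4 and 2 peaks in MDA-MB-453, 7 and 14 in SKBR3, and 3 and 6 in T47D. FOXA1 lists held 9 and 6 OVOL2 peaks in MDA-MB-453, 12 and 12 in SKBR3, and 5 and 7 in T47D. TLE3 shares were 9.37 and 8.81 per 100000 in MDA-MB-453, 33.1 and 14.8 in SKBR3, and 9.94 and 9.77 in T47D. FOXA1 shares were 4.79 and 3.92 in MDA-MB-453, 11.2 and 10.3 in SKBR3, and 3.39 and 4.70 in T47D. Within each line every TLE3 library lay above every FOXA1 library, and SKBR3 had the highest shares of both factors.

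The OVOL2 share rose in TLE3 relative to FOXA1 by 1.01 ± 0.20 on the log2 scale (SE, adjusted p = 0.017, limma), in 3 of 3 lines, with an exact two-sided permutation p of 0.00926. The difference was 1.19 with an adjusted p of 0.000554 without SKBR3 TLE3 replicate 2. It was -0.27 with equally long lists, where the median of all genes was 0.08, and -0.58 by number of peaks, 0.78 above the median of all genes. It was 0.88 with an adjusted p of 0.163 in the upper 50% of each list and 0.56 with an adjusted p of 0.0702 in a 100 kb window, so the direction and the call depend on how list length and window are set. Leaving out MDA-MB-453 FOXA1 replicate 1 or 2, SKBR3 FOXA1 replicate 1 or 2, or T47D FOXA1 replicate 1 ended the call, with log2 differences of 1.05, 0.97, 1.03, 0.99 and 0.95 and adjusted p of 0.052, 0.0698, 0.0602, 0.0677 and 0.0604 in that order.

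The upper-coordinate end of OVOL2, chr20:18057186-18059592, had a peak in all 12 libraries. TLE3 ranked there at 93.1 and 84.9 in MDA-MB-453, 49.0 and 30.8 in SKBR3, and 87.6 and 96.2 in T47D, and FOXA1 at 98.1 and 96.4 in MDA-MB-453, 87.9 and 91.4 in SKBR3, and 98.8 and 99.0 in T47D. It was the highest ranked site of both factors in MDA-MB-453 and T47D. In SKBR3 the highest ranked FOXA1 site lay at -17.0 kb, chr20:18006523-18007741, with TLE3 at 79.8 in replicate 1 and no peak in replicate 2, and FOXA1 at 95.9 and 96.5. SKBR3 thus had its strongest OVOL2 site away from the gene end that led in the other lines.

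**Figure D3:**
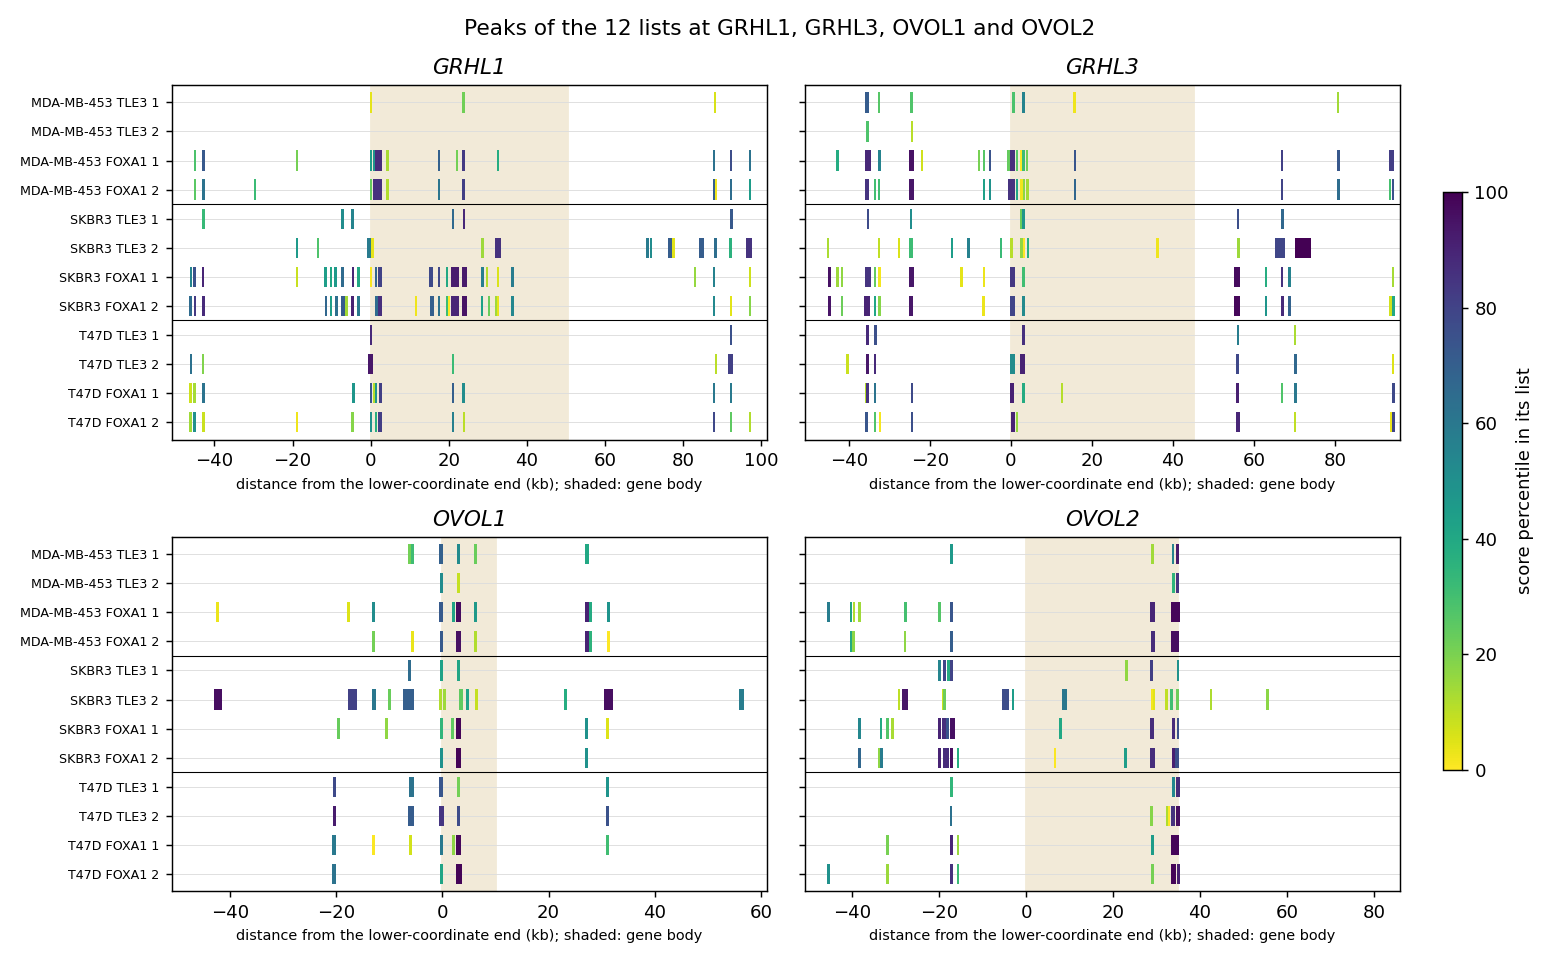
Peaks of the 12 lists along the windows of GRHL1, GRHL3, OVOL1 and OVOL2, with distance from the lower-coordinate end in kb on the horizontal axes, libraries as rows in the same order in each panel, gene bodies shaded and colour for the score percentile; narrow peaks are drawn at a width of 0.6 kb. OVOL1 has peaks of all 12 libraries at its lower end and at 3.22 kb, and OVOL2 has peaks of all 12 at its upper end.

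By share, 2 of the 5 genes were higher in TLE3 (OVOL1 and OVOL2, both of which have a negative sign by number of peaks) and 0 lower, by limma over 17439 genes. Without adjustment 3 had p under 0.05 on the higher side and 0 on the lower side. Among all genes tested 6.9% were higher and 2.63% lower. When SKBR3 TLE3 replicate 2 was left out, 3 of 5 were higher, with 17.6% of 16848 genes, and 1, GRHL2, was lower, with 27.6%. The median log2 difference was 0.60 for the 5 genes and -0.09 for all genes, and without that library it was 0.73 for the 5 genes and -0.20 for all genes. By the exact permutation over all genes 0 passed adjustment, the smallest p it can give being 0.00926, and 3 of the 5 had an unadjusted p under 0.05.

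TLE3 shares differed between the lines for 3 of 5 genes, GRHL1 (adjusted p = 0.042), GRHL2 (0.0115) and OVOL2 (0.049), by limma's F test, with 25.5% of all genes called. It was 4 of 5, GRHL3 included, without SKBR3 TLE3 replicate 2, with 61.3% called. GRHL1 and OVOL2 were highest in SKBR3, GRHL2 in T47D and lowest in SKBR3. The GRHL1 call was lost in 15 of 23 alternatives, the OVOL2 call in 19 of 23 and the GRHL2 call in 3 of 23, among them the number of peaks (adjusted p = 0.427). In the 6 TLE3 libraries fitted alone 0 of 5 were called (3 with an unadjusted p under 0.05), with adjusted p of 0.242 for GRHL1, 0.192 for GRHL2 and 0.262 for OVOL2, and 0% of all genes. With SKBR3 by its replicate 1 in that fit, 1 gene, OVOL2 (adjusted p = 0.0405), was called, with 12.6% of all genes. For FOXA1, 0 of 5 were called in the 12-library fit (1 with an unadjusted p under 0.05) and 0.791% of all genes. Leaving out SKBR3 TLE3 replicate 2 gave 1 of 5, OVOL2, with 12.5%. In the FOXA1 libraries alone 4 of 5 were called, all but OVOL1, with 61.1% of all genes, so this count is near the background.

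Whether the TLE3 and FOXA1 difference itself varied between lines was tested for each gene. By limma's F test 0 of 5 passed in the 12 libraries (1, GRHL2, with an unadjusted p of 0.0228) and 0.631% of all genes did. With SKBR3 TLE3 replicate 2 left out, 1 of 5, GRHL2, passed with an adjusted p of 0.013, and 25.2% of all genes did. The GRHL2 log2 difference was 0.02 for MDA-MB-453, -1.15 for SKBR3 and 0.11 for T47D, and -1.54 for SKBR3 with TLE3 replicate 1 alone.

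TLE3 sites near the 5 genes overlapped FOXA1 sites at 13 of 13 in MDA-MB-453, 20 of 24 in SKBR3 replicate 1, 25 of 72 in SKBR3 replicate 2 and 24 of 27 in T47D. These are 100, 83.3, 34.7 and 88.9%, against 99.3, 93.5, 21.7 and 87.0% of all TLE3 sites. In the other direction, FOXA1 sites near the genes overlapped a TLE3 site at 11 of 74 in MDA-MB-453, 19 of 74 in SKBR3 with replicate 1, 22 of 74 with replicate 2 and 23 of 69 in T47D. These are 14.9, 25.7, 29.7 and 33.3%, against 15.8, 20.9, 22.4 and 21.9% of all FOXA1 sites. Sites that held both SKBR3 TLE3 replicates numbered 10 near the 5 genes, of which 8 overlapped FOXA1. None of those 10 lay at GRHL2. No test was run on these shares, since neighbouring sites are not replicates.

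Among the genes, OVOL1 had 3 of 3 FOXA1 sites with TLE3 in T47D and 2 of 7 in MDA-MB-453. OVOL1 also had 2 of 3 in SKBR3 with replicate 1. OVOL2 had 1 of 6 in MDA-MB-453, 5 of 8 in SKBR3 with replicate 1 and 2 of 5 in T47D. GRHL3 had 4 of 7 in T47D, 2 of 14 in MDA-MB-453 and 5 of 14 in SKBR3 with replicate 1. GRHL2 had 12 of 43 in T47D, 6 of 37 in MDA-MB-453 and 2 of 28 in SKBR3 with replicate 1. GRHL1 had 0 of 10 in MDA-MB-453, 5 of 21 in SKBR3 with replicate 1 and 2 of 11 in T47D. With SKBR3 TLE3 replicate 2 the numbers were 2 of 3 at OVOL1, 4 of 8 at OVOL2 and 7 of 14 at GRHL3. They were 5 of 28 at GRHL2 and 4 of 21 at GRHL1, so the SKBR3 values depend on the replicate. Near the 5 genes, FOXA1 sites with TLE3 had a median score percentile of 94.9 in MDA-MB-453, and those without TLE3 58.0. In SKBR3 with replicate 1 the medians were 90.0 with TLE3 and 54.8 without, and in T47D 83.3 with TLE3 and 55.1 without. For SKBR3 TLE3 replicate 2 they were 56.4 with TLE3 and 59.9 without, so the higher rank of shared sites was not seen with that library. Over all FOXA1 sites the medians with TLE3 were 87.3 to 91.7 in MDA-MB-453, T47D and SKBR3 with replicate 1, and 66.0 with SKBR3 replicate 2. Those without TLE3 were 50.6 to 52.2 and, with SKBR3 replicate 2, 56.1.

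**Figure D4:**
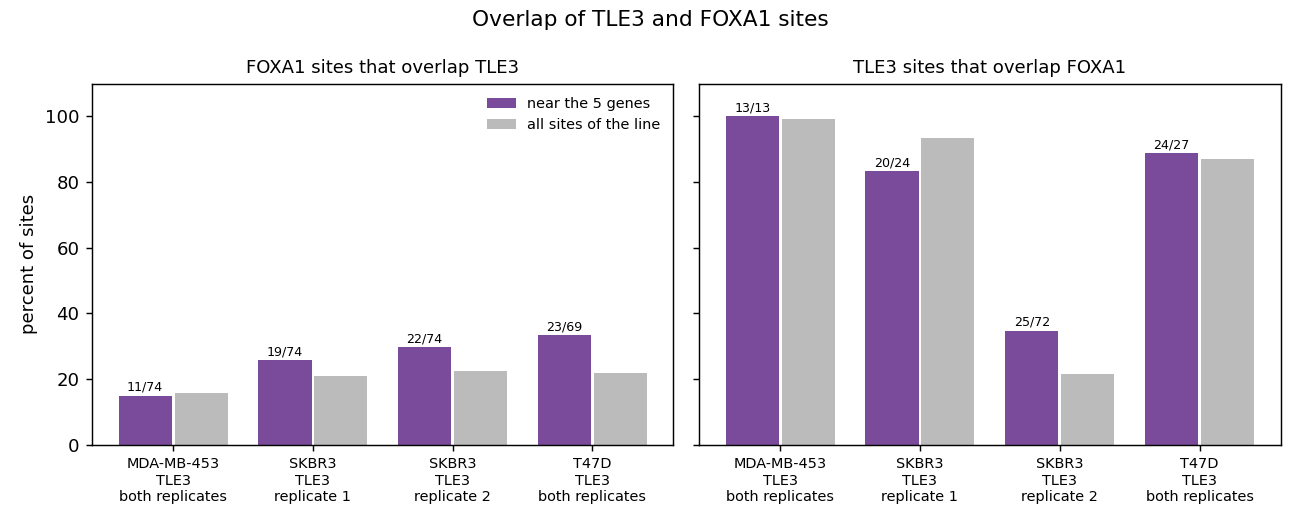
Percent of FOXA1 sites that overlap a TLE3 site (left) and of TLE3 sites that overlap a FOXA1 site (right) near the 5 genes and over all sites, by line and TLE3 set, with the number of sites above the bars. The SKBR3 TLE3 replicate 2 bars on the right, 34.7 and 21.7%, are far below the others.

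Among 41 merged TLE3 sites, with SKBR3 by replicate 1, 6 were shared by the 3 lines, or 14.6%, against 13.5% of all TLE3 sites. GRHL2 held 2 of these 6, OVOL1 2, and GRHL3 and OVOL2 1 each. When a peak of both SKBR3 TLE3 replicates was required, 2 of 33 were shared by the 3 lines, or 6.06%, against 5.52% of all. OVOL1 and OVOL2 then held 1 each, and GRHL2 and GRHL3 0. Of the 116 merged FOXA1 sites near the 5 genes, 34 were shared by all 3 lines, or 29.3%, against 22.2% of all FOXA1 sites. At GRHL2 it was 20 of 52, or 38.5%, and at GRHL3 4 of 21.

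The windows also hold other genes, and a peak there may belong to them. KLF11 and TAF1B lie in the GRHL1 window, NCALD in that of GRHL2, NIPAL3 and STPG1 in that of GRHL3, AP5B1, LOC124902693 and SNX32 in that of OVOL1, and MGME1 in that of OVOL2. A place at 92.2 kb in the GRHL1 window lay inside KLF11, with TLE3 at 72.5 and 36.3 in SKBR3 and 75.3 and 81.0 in T47D, and no TLE3 peak in MDA-MB-453. FOXA1 peaks at that KLF11 place ranked at 76.4 and 64.6 in MDA-MB-453, 4.32 in SKBR3 replicate 2 alone, and 59.2 and 25.0 in T47D. Exon and intron positions were not used here.

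Genes of the same programmes gave a setting for these values. Of 21 epithelial junction and differentiation genes, TLE3 shares were higher in 6 and lower in 0 by limma (6 and 0 with an unadjusted p under 0.05), beside 6.9% and 2.63% of all genes. The 3 with the lowest adjusted p were JUP, which encodes plakoglobin (log2 difference 1.21, adjusted p = 0.00269), and CLDN3 and LSR, junction proteins, with 0.68 and 0.78 and an adjusted p of 0.0176 each. The list median was 0.29 and that of all genes -0.09. By number of peaks 0 of 21 were higher and 17 lower, with JUP, CLDN3 and LSR at -0.44, -0.93 and -0.75, beside 0% and 76.7% of all genes, so the lower count is near the background. In the upper 50% of each list 0 of 21 were higher and 0 lower, with JUP, CLDN3 and LSR at 0.80, 0.66 and -0.20, beside 2.43% and 3.14%. In equally long lists 5 of 20 were higher and 2 lower, beside 15.2% and 9.03%. The list median was -1.26 by number of peaks, -0.20 in the upper 50% and 0.16 with equally long lists. Its sign thus depends on the scaling. The medians of all genes in the same order were -1.36, -0.37 and 0.08, each below that of the list. In that order 16 of 21, 11 of 21 and 11 of 20 genes of the list lay above them. TLE3 shares differed between lines in 11 of 21, with CDH1, which encodes E-cadherin, first (adjusted p = 0.00148), beside 25.5% of all genes, and FOXA1 shares in 1, again CDH1 (adjusted p = 0.0443), beside 0.791%. Without SKBR3 TLE3 replicate 2 it was 17 of 21 for TLE3, beside 61.3%, and 4 for FOXA1, beside 12.5%. CDH1 had TLE3 shares of 16.4 and 13.2 in MDA-MB-453, 0 and 2.12 in SKBR3, and 23.2 and 26.1 in T47D, and FOXA1 shares of 13.8 and 16.3 in MDA-MB-453, 1.86 and 1.71 in SKBR3, and 14.3 and 16.1 in T47D. CDH1 was thus lowest in SKBR3 for both factors. DNA copy number was not measured in these lines, and shares were not corrected for it. GRHL2 was lowest in SKBR3 for TLE3 alone. Its FOXA1 shares were 28.8 and 30.0 in SKBR3, above the 27.7 and 26.1 of MDA-MB-453.

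Of 9 mesenchymal genes 8 were tested, TWIST1 being below the filter, and 0 had a higher and 0 a lower TLE3 share (0 and 2 with an unadjusted p under 0.05). SNAI1, a repressor of CDH1, was the 1 whose TLE3 share differed between lines (adjusted p = 0.00825), beside 25.5% of all genes. Its TLE3 shares were 2.34 and 4.40 per 100000 in MDA-MB-453, 18.9 and 12.7 in SKBR3, and 6.63 and 8.14 in T47D. Of 4 relatives, OVOL3, TFCP2, TFCP2L1 and UBP1, 0 had a share that differed between the factors (0 with an unadjusted p under 0.05). Without SKBR3 TLE3 replicate 2, TLE3 shares differed between lines in 3 of the 8, ZEB1, SNAI1 and SNAI2, beside 61.3% of all genes, and FOXA1 shares in 2, ZEB1 and CDH2, beside 12.5%. In the same fit 8 of 21 epithelial genes were higher in TLE3 and 1 lower, and 0 of 8 mesenchymal genes were higher and 2 lower, beside 17.6% of all genes higher and 27.6% lower.

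The genes whose log2 shares were most alike over the 12 libraries, by Pearson correlation and as a description only, were CPE, TIAM2 and LOC124905948 for GRHL1 (r of 0.98, 0.98 and 0.97). They were CCDC85A, TPD52L1 and DRC9 for GRHL2 (0.96, 0.95 and 0.95), and SGF29, CSRNP1 and CIAPIN1 for GRHL3 (0.96, 0.96 and 0.94). For OVOL1 they were SMAP2, SNRNP25 and RHBDF1 (0.92, 0.92 and 0.91), and for OVOL2 RAB8A, TPM4 and RRP7A (0.97, 0.96 and 0.96). Among the 5 genes, GRHL3 and OVOL2 were the most alike (0.89), and GRHL2 ran against each of the others, from -0.45 with OVOL1 to -0.72 with GRHL3. The 12 points share the same lists and their lengths. TPD52L1, closest to GRHL2 but for CCDC85A, had TLE3 shares of 11.7 and 17.6 in MDA-MB-453, 4.73 and 11.7 in SKBR3, and 36.5 and 32.6 in T47D.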

How the data were processed

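TLE3 and FOXA1 ChIP-seq peaks came from 12 lists, 1 for each library, grouped by the line and factor in the titles. MACS2, SAMtools, BWA 0.7.5a and Trim Galore are named, with the build hg38, per the submitters' processing notes. No source used here gives the caller's settings or its controls. Each deposited list gives a score per peak, the authors' own value, whose quantity is not named and whose lowest value was 2.0 to 2.04. It served only to rank peaks within a list. Peaks outside chromosomes 1 to 22 and X, 0 to 4 a list, were left out. Among 66 list pairs, identical intervals made up at most 0.00881%.

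Each protein-coding gene of a RefSeq table (GRCh38.p14) got the peaks with a centre in its body or within 50 kb, per 100000 peaks of the list. The table has no strand, so positions are given from a gene end. Values were log2(share + 1). Genes with a mean share under 2 were left out, which left 17439. They were fitted with limma 3.58.1 (R 4.3.3, eBayes with trend) on 6 line-by-factor means, with Benjamini-Hochberg adjustment and a threshold of 0.05. The test of the factor difference between lines was not in the original design. Exact permutation of factor labels within lines stood beside it. Sites are merged regions with a peak of both replicates, and overlap means 1 bp or more. The fit was tested on simulated data. The alternatives are in the closing section. The members and lists were chosen with earlier results of these data known. Named are the 5 members, for each the 3 most alike genes, and up to 3 called genes per list and comparison. Of the highest ranked and gene-end sites, not all are named. Recurrent places were chosen after their values were seen.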

Additional observations from a re-analysis of the deposited data

Results flagged for a closer look

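GRHL2 is given here because its TLE3 and FOXA1 shares did not overlap and lay in opposite order in 2 lines. Such an order was not counted over all genes, so how common it is remains unknown. The log2 difference of TLE3 from FOXA1 was -1.15 in SKBR3, with both TLE3 libraries below both FOXA1 libraries, and 0.11 in T47D, with both TLE3 libraries above. A single peak adds 3.31 to the share of T47D TLE3 replicate 1, more than the gap between the factors there, and the T47D TLE3 lists held 12 and 24 GRHL2 peaks against 53 and 55 in the FOXA1 lists. The difference between lines was tested with limma's F test and had an adjusted p of 0.256 over the 12 libraries and of 0.013 without SKBR3 TLE3 replicate 2, where 25.2% of all genes were called.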

How the results depend on the processing

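Genes whose TLE3 and FOXA1 shares differed numbered 1661. The count was 13373 by number of peaks in place of the share, 911 in the upper 50% of each list, 3562 with equally long lists, 979 with a 10 kb window, 0 by exact permutation within lines, and 438 to 7605 when a library was left out (lowest without SKBR3 FOXA1 replicate 2, highest without SKBR3 TLE3 replicate 2). FOXA1 shares differed between lines in 138 genes, against 275 with a pseudocount of 4, 436 with no filter, 83 by number of peaks, 3 in the upper 50%, 4482 with equally long lists, 367 with a 100 kb window, 10656 in FOXA1 libraries alone, and 0 to 2136 with a library left out (0 without SKBR3 FOXA1 replicate 1, 2136 without SKBR3 TLE3 replicate 1). TLE3 shares differed between lines in 4446 genes, against 3 by number of peaks, 2666 in the upper 50%, 2531 with a 10 kb window, 0 in TLE3 libraries alone, 2200 in those alone with SKBR3 by replicate 1, and 2595 to 10322 with a library left out (lowest without MDA-MB-453 TLE3 replicate 2, highest without SKBR3 TLE3 replicate 2). The causes were not tested. The fits with 1 factor alone were chosen after seeing the data.

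The log2 difference turned its sign by number of peaks at GRHL3 (-1.05), OVOL1 (-0.21) and OVOL2 (-0.58), with equally long lists at GRHL1 (0.55) and OVOL2 (-0.27), and in the upper 50% at GRHL3 (-0.016). OVOL1 kept its sign and its call with equally long lists and in the upper 50%. GRHL2 was negative in all 22 alternatives. The replicate block, the absent filter and the permutation could not change its value of -0.34. By line GRHL2 was negative in SKBR3 alone, at -1.15, with 0.02 in MDA-MB-453 and 0.11 in T47D.

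With a replicate block, 24 genes had FOXA1 shares that differed between lines, against 138 without it. Correlations between same-numbered deviations ran from -0.139 to 0.235 over 15 pairs of groups, and 1 passed 0.1. The values did not show a common pairing by replicate number, but they cannot exclude one, since 1 pair reached 0.235.

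FOXA1 sites near the 5 genes that overlapped TLE3 came to 50% in MDA-MB-453 and 50% in T47D with equally long lists, with ranges of 10.7 to 33.8% and 28.4 to 49.3% when a library was left out. With SKBR3 TLE3 replicate 1 they came to 33.3% in the upper 50%, 71.4% with equally long lists, 19.4% with a peak of either FOXA1 replicate, 10.8% with both TLE3 replicates, and 22.0 to 22.8% with a FOXA1 library left out. With SKBR3 TLE3 replicate 2 they came to 24.3% at an overlap of 50%, 4.76% in the upper 50% and with equally long lists, 35.0% within 100 kb, 25.9% with either FOXA1 replicate, and 26.1 to 26.4% with a FOXA1 library left out. TLE3 sites that overlapped FOXA1 came to 75.0% in MDA-MB-453 with equally long lists and 93.1 to 100% with a library left out. In T47D they came to 68.4% in the upper 50%, 42.9% with equally long lists and 83.7 to 100% with a library left out. Read depth is unknown, so a missing peak does not show that a factor was absent.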
